A study of Mus musculus with 20 samples.

Results

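The genes described here encode the signalling machinery of the T cell receptor and a few surface proteins that mark T cells: Cd3d, Cd3e, Cd3g, Cd4, Cd8a, Lck, Zap70, Cd2, Cd5 and Il7r. They were chosen by name, as rows of the deposited table whose gene symbol equals one of these and that hold values for the 4T1 breast cancer (BC) model. All 10 were found, among 15465 named genes with BC values. RNA of whole tumour tissue was sequenced from 4 lung metastases and 4 primary tumours, orthotopic tumours derived from 4T1, a mouse mammary carcinoma cell line, and every library was labelled 28 days. The titles number both tissues 1 to 4 and the series text calls the metastases matched, so a number is read here as 1 mouse. The labels give no further genotype, strain or treatment for these mice, and all tumours share the one parental line. The question was which genes differ between the metastases and the primary tumours. Another 12 libraries, of a pancreatic cancer model, were not used here. Nothing in the labels says that T cells were enriched or sorted, so each value is an average over tumour, stroma and blood cells; in such bulk tissue, fewer T cells and less RNA per T cell cannot be told apart.

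The T cell receptor recognises peptide on major histocompatibility complex proteins through a variable chain pair that cannot signal by itself. The invariant CD3 chains carry the signal: the coreceptors CD4 and CD8 bring the kinase LCK to the receptor, LCK phosphorylates the CD3 tails, and ZAP70 docks there and phosphorylates adaptors such as LAT. In tumours, transcripts of these genes are widely read as a measure of T cell content, although natural killer cells, innate lymphoid cells, some dendritic cells and a B cell subset also express individual members.

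Levels are given as normalised read counts, the reads of a gene after the authors' scaling of each library to a common size. Depth was 15447918 to 28995834 reads per library, lowest in the lung metastasis of mouse 3. A single read was worth 0.0337 to 0.0676 normalised counts. The 10 genes were low in abundance: a gene had 17 to 412 reads in a lung metastasis and 0 to 488 in a primary tumour. The epithelial keratin genes Krt8 and Krt18, listed here as carcinoma markers, were present in both tissues. Krt8 averaged 737 ± 520 in metastases against 951 ± 326 in primary tumours, and Krt18 624 ± 402 against 918 ± 260 (SD, n = 4 each). Whether these reads came from carcinoma cells or from lung epithelium was not tested.

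All 10 genes had a higher mean in the lung metastases and a log2 change above 0, as had 45.1% of all genes tested, and 1 of them, Cd3d, passed the test. Genes were tested with limma (trend option) on log2(value + 1) across the whole table and called at a Benjamini-Hochberg adjusted p under 0.05. Of all 14003 genes tested 7.18% were called higher in lung metastases by the same rule and 1.96% lower (9.13% in all), and 0 of the 10 were called lower. With the mouse as a block, where again only Cd3d of the 10 was called, 6.68% of all genes were called higher. All 10 passed the filter on low values. Cd3d, Cd5 and Cd8a were the 3 genes whose groups did not overlap, with every lung metastasis above every primary tumour. Of all genes tested 10.4% were separated in that direction. Over the 10 genes the median log2 change was 0.86, beside -0.06 over all genes tested. Leaving out the primary tumour of mouse 1, 3 or 4 brought the genes called in either direction to 851, 852 or 711, in place of 1279, and Cd3d was called each time.

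**Figure D1:**
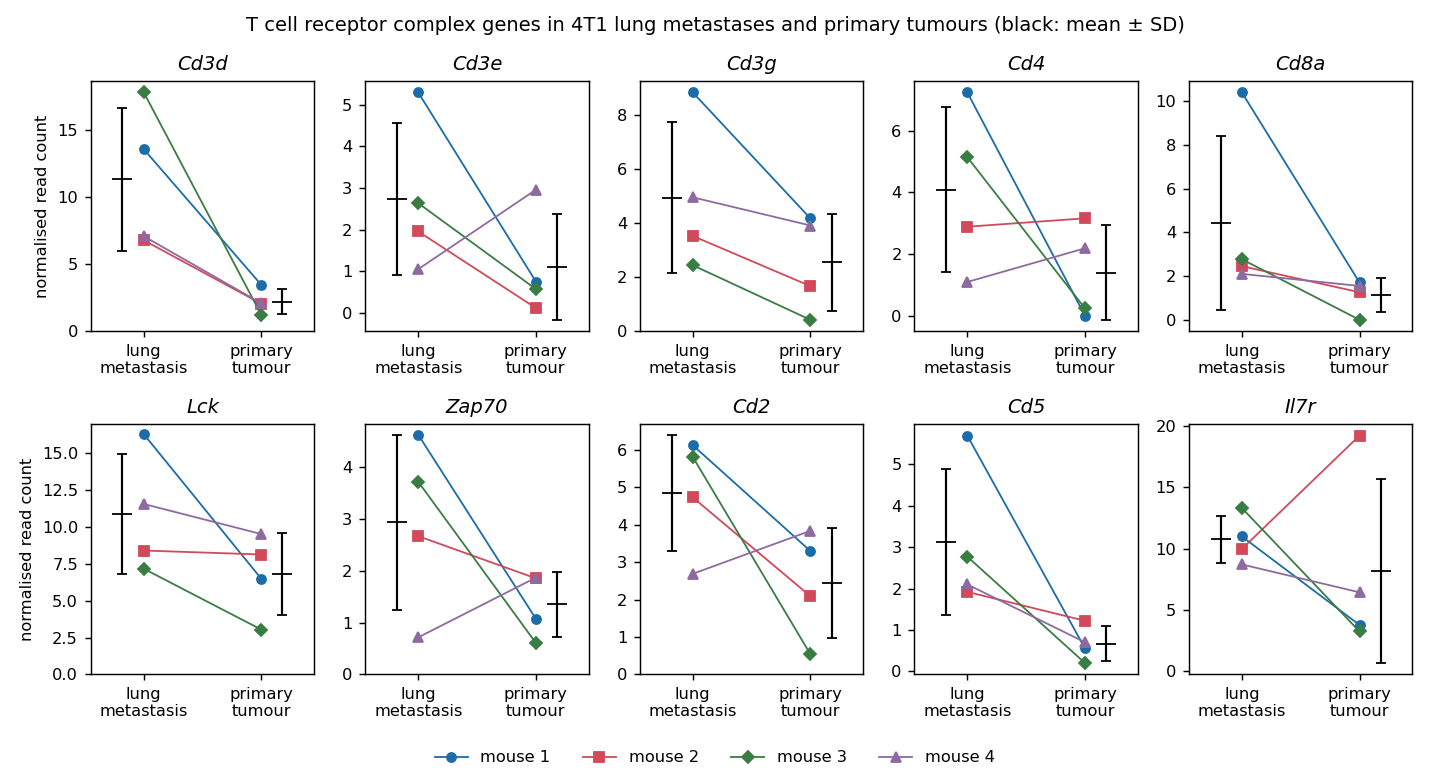
Normalised read count (vertical axis, its own scale in each panel) of the 10 genes in the lung metastasis (left) and primary tumour (right) of each mouse, with lines joining libraries of the same mouse and black bars giving mean ± SD over 4 mice. Every mouse had more Cd3d in its metastasis (6.8 to 17.9 against 1.21 to 3.46), whereas Il7r, Cd4, Cd3e, Zap70 and Cd2 each had at least 1 line running the other way.

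The 3 CD3 genes encode the delta (Cd3d), epsilon (Cd3e) and gamma (Cd3g) chains, which assemble as delta-epsilon and gamma-epsilon pairs beside the antigen-binding chains. They lie next to each other on mouse chromosome 9. In RefSeq's GRCm38.p6 table, which is not the build of the deposited values, 1337 bases separate Cd3g from Cd3d, whose reading directions point apart, and 11682 bases separate Cd3d from Cd3e. No annotated gene of that table overlaps any of the 3. The 250 bases before each start, from RefSeq and read 5′ to 3′ on the gene's strand, are shown because Cd3d passed the test and its neighbours did not, which is no test of a difference between them; capitals mark GGAA or its reverse complement TTCC, the core letters bound by ETS family factors. The windows are chr9:44981536-44981785 on the plus strand for Cd3d, chr9:44980432-44980681 on the minus strand for Cd3g and chr9:45009612-45009861 on the minus strand for Cd3e.
Cd3d: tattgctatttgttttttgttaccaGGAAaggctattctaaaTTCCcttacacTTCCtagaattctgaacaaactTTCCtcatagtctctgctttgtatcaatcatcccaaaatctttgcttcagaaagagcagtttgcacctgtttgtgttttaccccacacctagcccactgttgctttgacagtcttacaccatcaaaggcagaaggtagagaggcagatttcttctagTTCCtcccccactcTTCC
Cd3g: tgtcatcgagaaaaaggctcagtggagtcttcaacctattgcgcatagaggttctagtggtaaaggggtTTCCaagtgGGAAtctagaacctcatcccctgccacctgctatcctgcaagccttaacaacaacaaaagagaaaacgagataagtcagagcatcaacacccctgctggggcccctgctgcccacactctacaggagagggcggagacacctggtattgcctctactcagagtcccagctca
Cd3e: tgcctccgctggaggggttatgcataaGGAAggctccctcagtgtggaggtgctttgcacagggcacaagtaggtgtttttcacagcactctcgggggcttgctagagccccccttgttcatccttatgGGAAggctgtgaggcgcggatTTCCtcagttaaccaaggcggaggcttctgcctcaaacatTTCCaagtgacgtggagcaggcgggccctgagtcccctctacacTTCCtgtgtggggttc
The core letters, counted on both strands with overlaps allowed, occurred 6 times before Cd3d, 2 times before Cd3g and 5 times before Cd3e. Among all 32851 windows of that length, 93.4% held at least 1 match, with a median of 3. The letters TATAAA were absent from these 3 windows on both strands and present in 12.4% of all windows, and TGTGGT was absent from the 3 and present in 14.0%. Promoter entries were found for 8 of the 10 genes.

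Cd3d stood at 13.6, 6.8, 17.9 and 7.1 in the lung metastases of mice 1 to 4, against 3.46, 2.05, 1.21 and 2.08 in their primary tumours. The lowest metastasis was therefore above the highest primary tumour. The means were 11.3 ± 5.36 in lung metastases and 2.2 ± 0.929 in primary tumours (SD, n = 4 each), from 968 and 234 reads in all. The log2 change was 1.89 (SE 0.372, limma adjusted p = 0.0103), and the metastasis was higher in 4 of 4 mice. Cd3d passed under all 17 alternatives (adjusted p 2.15e-05 to 0.0386).

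Cd3g stood at 8.86, 3.52, 2.43 and 4.96 in the metastases of mice 1 to 4, against 4.17, 1.66, 0.405 and 3.91 in the primary tumours. It was higher in the metastasis of each mouse, but the groups overlapped, because mice 1 and 4 were high and mice 2 and 3 low in both tissues. Cd3g had a log2 change of 0.82 (SE 0.484, limma adjusted p = 0.346). Cd3e stood at 5.3, 1.96, 2.64 and 1.05 in the metastases, against 0.755, 0.118, 0.573 and 2.96 in the primary tumours. Mouse 4 ran the other way, and the value of mouse 2's primary tumour rested on 3 reads. The log2 change of Cd3e was 0.88 (SE 0.469, limma adjusted p = 0.295).

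The ratios between the CD3 chains varied. Cd3d divided by Cd3g was 1.54, 1.93, 7.33 and 1.43 in the metastases of mice 1 to 4, against 0.83, 1.24, 3.00 and 0.532 in the primary tumours, so it was higher in the metastasis of each mouse and highest in mouse 3 in both tissues. Cd3d divided by Cd3e was 2.57, 3.47, 6.77 and 6.76 in the metastases, against 4.58, 17.3, 2.12 and 0.702 in the primary tumours, with no shared direction. Both ratios were chosen after their values were seen and were not tested.

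Among the coreceptors, CD4 binds class II and CD8 class I major histocompatibility complex proteins, and they mark helper and cytotoxic T cells. Cd8a, the CD8 alpha chain, stood at 10.4, 2.45, 2.77 and 2.1 in the metastases of mice 1 to 4, against 1.71, 1.26, 0 and 1.55 in the primary tumours. The groups did not overlap, but the mean of 4.43 ± 3.99 in lung metastases against 1.13 ± 0.776 in primary tumours included a metastasis of mouse 1 far above the other 3. The primary tumour of mouse 3 had 0 reads, which allows a level of up to about 0.101 (3 reads). The metastasis of mouse 3 was 27.4-fold above that level, leaving aside its own counting error. The log2 change was 1.22 (SE 0.49, limma adjusted p = 0.166); with array weights, under which 11.0% of all genes were called higher, Cd8a passed (adjusted p = 0.0449; 0.0449 to 0.364 over its 16 alternatives).

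Cd4 stood at 7.24, 2.88, 5.14 and 1.09 in the metastases of mice 1 to 4, against 0, 3.16, 0.236 and 2.18 in the primary tumours. Mice 1 and 3 had high metastases and nearly empty primary tumours, while in mice 2 and 4 the primary tumour was the higher. The 0 reads in the primary tumour of mouse 1 allow a level of up to about 0.119, although Lck had 163 reads and Cd3g 105 reads in the same primary tumour. The metastasis of mouse 1 was 60.7-fold above that level, leaving aside its own counting error. Cd4 had a log2 change of 1.16 (SE 0.564, limma adjusted p = 0.251).

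The balance of the coreceptors was compared as log2((Cd4 + 1)/(Cd8a + 1)) in each library. It was -0.47, 0.17, 0.70 and -0.57 in the metastases of mice 1 to 4, against -1.44, 0.88, 0.31 and 0.32 in the primary tumours. The means were -0.04 ± 0.59 in lung metastases and 0.02 ± 1.01 in primary tumours (SD, n = 4 each), a difference of -0.06, smaller than the spread in either tissue (two-sided exact permutation test, p = 0.914; the smallest p that 70 relabellings allow is 0.0286). The sign of this difference depended on the pseudocount and on single libraries, so it gives no direction.

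Of the kinases, LCK starts the signal and ZAP70 carries it on; LCK is also used by natural killer cells, as is ZAP70. Lck rested on 1029 reads in lung metastases and 729 in primary tumours. It stood at 16.3, 8.4, 7.17 and 11.6 in the metastases of mice 1 to 4, against 6.48, 8.13, 3.03 and 9.51 in the primary tumours. Each metastasis was above its own primary tumour, in mouse 2 by 1.03-fold only, and the groups overlapped. Lck had a log2 change of 0.63 (SE 0.368, limma adjusted p = 0.338).

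Zap70 stood at 4.63, 2.67, 3.72 and 0.714 in the metastases of mice 1 to 4, against 1.07, 1.85, 0.607 and 1.87 in the primary tumours. Mouse 4 was the exception, with 17 reads in its metastasis and 53 in its primary tumour. Zap70 had a log2 change of 0.65 (SE 0.415, limma adjusted p = 0.382). No protein-coding gene of the RefSeq table overlaps Lck or Zap70, but a microRNA gene lies within the span of Lck and a pseudogene within that of Zap70.

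CD2 binds adhesion partners on other cells and CD5 dampens receptor signalling. Cd5 stood at 5.69, 1.92, 2.77 and 2.1 in the metastases of mice 1 to 4, against 0.556, 1.22, 0.202 and 0.704 in the primary tumours. The groups did not overlap and the metastasis was higher in 4 of 4 mice, by 10.2-fold in mouse 1, 1.57-fold in mouse 2, 13.7-fold in mouse 3 and 2.98-fold in mouse 4. The log2 change was 1.25 (SE 0.361), just short of the threshold (limma adjusted p = 0.0575). With array weights (adjusted p = 0.0134) and with DESeq2 (0.0107, with 10.5% of all genes called higher) Cd5 passed. It did not with edgeR (0.0853, within 0.0107 to 0.161 over its 16 alternatives). On simulated data the share of false calls was above the nominal level for DESeq2 and, less so, for limma.

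Cd2 stood at 6.13, 4.73, 5.81 and 2.69 in the metastases of mice 1 to 4, against 3.3, 2.09, 0.539 and 3.84 in the primary tumours. In mice 1 to 3 the metastasis was the higher, and in mouse 4 the primary tumour was. Cd2 had a log2 change of 0.84 (SE 0.41, limma adjusted p = 0.251).

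Il7r encodes the receptor chain for interleukin 7, which keeps naive and memory T cells alive; innate lymphoid cells carry it as well. It stood at 11, 9.96, 13.3 and 8.7 in the metastases of mice 1 to 4, against 3.74, 19.2, 3.2 and 6.41 in the primary tumours. The metastases were close to each other, and the primary tumour of mouse 2 held the highest value of all 8 libraries, 488 reads. The log2 change was 0.65 (SE 0.457, limma adjusted p = 0.431). Without the primary tumour of mouse 2 it was 1.14, still short of the threshold (adjusted p = 0.0636; 0.0636 to 0.708 over its 17 alternatives).

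**Figure D2:**
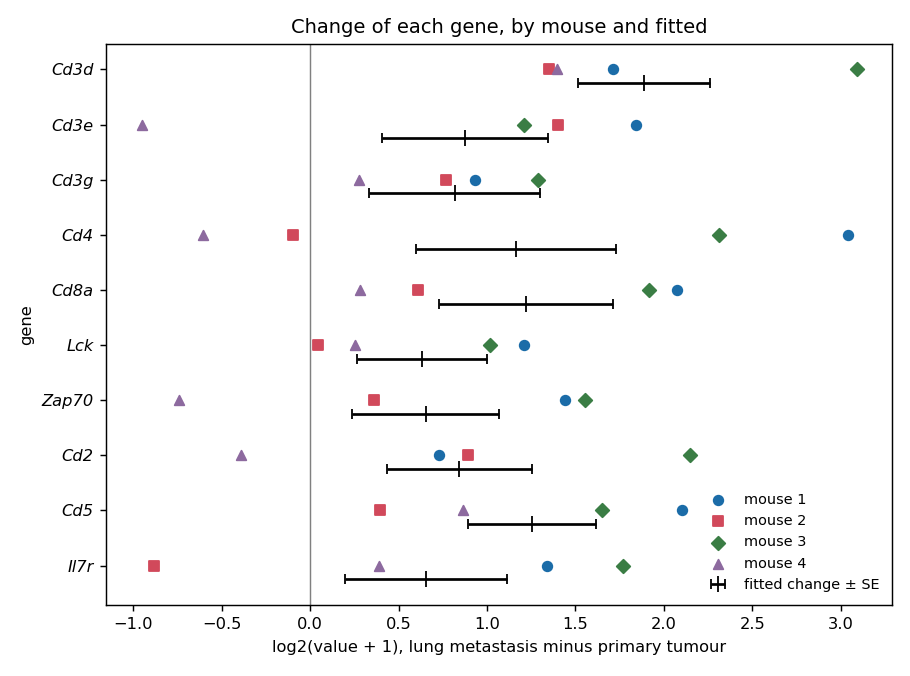
Change of log2(value + 1), lung metastasis minus primary tumour, for each gene (rows): coloured symbols are the 4 mice and black bars the fitted change ± SE. Mice 1 and 3 lie right of 0 for all 10 genes, while mouse 4 lies left of 0 for Cd3e, Cd4, Zap70 and Cd2 and mouse 2 for Cd4 and Il7r.

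The mice differed in how many of the genes were higher. In mouse 1, 10 of the 10 genes were higher in the metastasis, beside 49.5% of all genes tested, and in mouse 3 likewise 10, beside 47.0%. In mouse 2 there were 8, beside 52.1%, and in mouse 4 there were 6, beside 47.9%. In all 4 mice at once 5 of the 10 genes were higher in the metastasis (Cd3d, Cd3g, Cd8a, Lck and Cd5), beside 16.6% of all genes tested. Summed over the 10 genes, the metastases of mice 1 to 4 held 89.1, 45.3, 63.6 and 42.1, and their primary tumours 25.2, 40.8, 10.0 and 35.0. The sums of mice 2 and 4 were thus close between the tissues (1.11-fold and 1.2-fold) and those of mice 1 and 3 far apart (3.53-fold and 6.35-fold). Among the metastases 8 of the genes were highest in mouse 1 and 2, Cd3d and Il7r, in mouse 3; among the primary tumours 8 were lowest in mouse 3.

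Levels of different genes were set beside each other per kilobase of merged exons, taken from the GENCODE annotation of GRCm38, which may differ from the annotation the authors counted on. On that scale the lung metastases held Cd3d at 6.25 ± 2.95, Lck at 3.71 ± 1.39, Cd2 at 2.78 ± 0.893 and Il7r at 2.3 ± 0.42, down to Cd3e at 0.67 ± 0.448 and Cd5 at 0.634 ± 0.356. The primary tumours held Lck at 2.32 ± 0.953, Il7r at 1.75 ± 1.62, Cd2 at 1.4 ± 0.841 and Cd3d at 1.21 ± 0.512, down to Cd3e at 0.27 ± 0.31 and Cd5 at 0.136 ± 0.086. Cd3d thus ranked first in lung metastases and below Lck, Il7r and Cd2 in primary tumours. In neither tissue did any neighbours in the order differ by more than the larger of their SDs.

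The chains that complete the receptor moved in the same direction without passing. Of 10 such genes listed 5 were in the table, and 0 of these 5 passed, with a median log2 change of 0.94. Cd247, the zeta chain, which carries most of the receptor's phosphorylation sites, averaged 2.14 ± 1.51 in metastases against 0.318 ± 0.322 in primary tumours (limma adjusted p = 0.0813). Its groups did not overlap; it passed with array weights (0.0109) and with DESeq2 (0.0453; 0.0109 to 0.204 over its 16 alternatives). The beta chain constant regions Trbc1 and Trbc2 stood at 5.34 ± 2.58 against 1.88 ± 1.23 and 5.65 ± 2.91 against 2.42 ± 1.14 (adjusted p = 0.118 and 0.173). These are near-identical copies, so the split of reads between them is uncertain. The alpha chain constant region Trac stood at 3.82 ± 1.9 against 2.01 ± 0.682 (adjusted p = 0.361).

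Adaptors, kinases and transcription factors that act with the receptor were counted in the same way. Over the 6 lists of other T cell genes 90 were tested and 10 rose and 2 fell, 12 in all, beside 7.18% of all genes called higher and 1.96% lower; no test set these counts against that background. The median log2 change was 0.44; without the primary tumour of mouse 4 the count was 7. Of 23 genes of proximal signalling 2 rose. Fyb, an adaptor that links the receptor to integrins, averaged 57.3 ± 25.8 in metastases against 20.6 ± 4.05 in primary tumours (log2 change 1.36, SE 0.291, limma adjusted p = 0.0148). Themis, an adaptor of developing T cells (1.26 ± 0.375 against 0.187 ± 0.217), and the transcription factor Nfatc1 (47.3 ± 22.2 against 25.7 ± 2.68) did not pass.

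Of 18 genes that restrain the receptor 2 rose. Ptprc, the CD45 phosphatase found on all nucleated blood cells, stood at 325, 245, 636 and 192 in the metastases of mice 1 to 4, against 104, 90.6, 101 and 110 in the primary tumours (log2 change 1.63, SE 0.314, limma adjusted p = 0.00939). All metastases were above all primary tumours, and mouse 3 was highest. Pag1, a membrane adaptor that recruits the inhibitory kinase CSK, stood at 73.5 ± 60.4 against 15 ± 4.43 (adjusted p = 0.0155; without the primary tumour of mouse 4, 0.0549; 6.03e-05 to 0.0549 over its 17 alternatives). Dgka, a diacylglycerol kinase (32.9 ± 18.7 against 14.3 ± 4.41), and the phosphatase gene Ptpn6 (94.2 ± 32.6 against 57.4 ± 11.7) did not pass.

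Of 12 costimulatory and adhesion genes 1 rose and 1 fell. Itgb2, the beta chain of leukocyte integrins, averaged 290 ± 76.2 in metastases against 137 ± 38.1 in primary tumours (log2 change 1.08, SE 0.237, limma adjusted p = 0.0167); its call ended without the primary tumour of mouse 2 or 4 (0.0505 and 0.0695; 0.000882 to 0.0695 over its 17 alternatives). Thy1, a surface protein of T cells in mice that fibroblasts also carry, fell to 14.9, 9.14, 9.53 and 12.4 in the metastases of mice 1 to 4, against 57, 48.1, 57.9 and 68.4 in the primary tumours. The log2 change of Thy1 was -2.25 (SE 0.216, limma adjusted p = 0.000187), with the lower value in the metastasis of every mouse, while the fitted changes of all 10 receptor complex genes were above 0. Itgal, the alpha chain that joins Itgb2 in LFA-1, stood at 129 ± 109 against 36.5 ± 8.76 (adjusted p = 0.0611), and Tnfrsf9, an activation-induced costimulatory receptor, at 10.3 ± 7.82 against 40.4 ± 33 (adjusted p = 0.0829).

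In the interleukin 7 and common gamma chain axis 0 of 15 genes passed, with a median log2 change of -0.17. The cytokine gene Il7 itself stood at 6.64, 5.98, 5.61 and 6.01 in the metastases of mice 1 to 4, against 8.3, 18.2, 3.41 and 6.66 in the primary tumours. The primary tumour of mouse 2, highest in Il7r, was highest in Il7 too. Il2rg, the shared receptor chain, stood at 14.3 ± 6.61 against 7.01 ± 2.41 (limma adjusted p = 0.169), and the survival gene Bcl2 at 36.7 ± 8.96 against 65.2 ± 23.6 (adjusted p = 0.103). Tslp, whose product signals through a receptor that contains the Il7r chain, stood at 23.5 ± 14.1 against 63.7 ± 42.4 (adjusted p = 0.182), and the receptor chain gene Il2rb at 11 ± 4.33 against 5.83 ± 3.52 (adjusted p = 0.245).

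Of 17 transcription factor and homing genes 5 rose and 1 fell. Klf2, a factor of resting T cells and of endothelium, averaged 174 ± 66.5 in metastases against 40.8 ± 10.9 in primary tumours (limma adjusted p = 0.00102), and Ikzf3, a lymphocyte factor, averaged 3.61 ± 2.2 against 0.282 ± 0.188 (adjusted p = 0.0117). S1pr1, the receptor for egress from lymphoid tissue, which endothelium also carries, stood at 102 ± 59.9 against 29.7 ± 22.9 (adjusted p = 0.0325; 0.00269 to 0.11 over its 17 alternatives). Satb1, a chromatin organiser of T cells, stood at 31 ± 25.6 against 7.44 ± 2.07 (adjusted p = 0.0362; 0.000809 to 0.111). The call of S1pr1 ended with edgeR (0.0741) and without the metastasis of mouse 1 or 2 or the primary tumour of mouse 1, 3 or 4; that of Satb1 ended with a pseudocount of 5 (0.0566) and without the metastasis of mouse 1 or any 1 primary tumour.

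**Figure D3:**
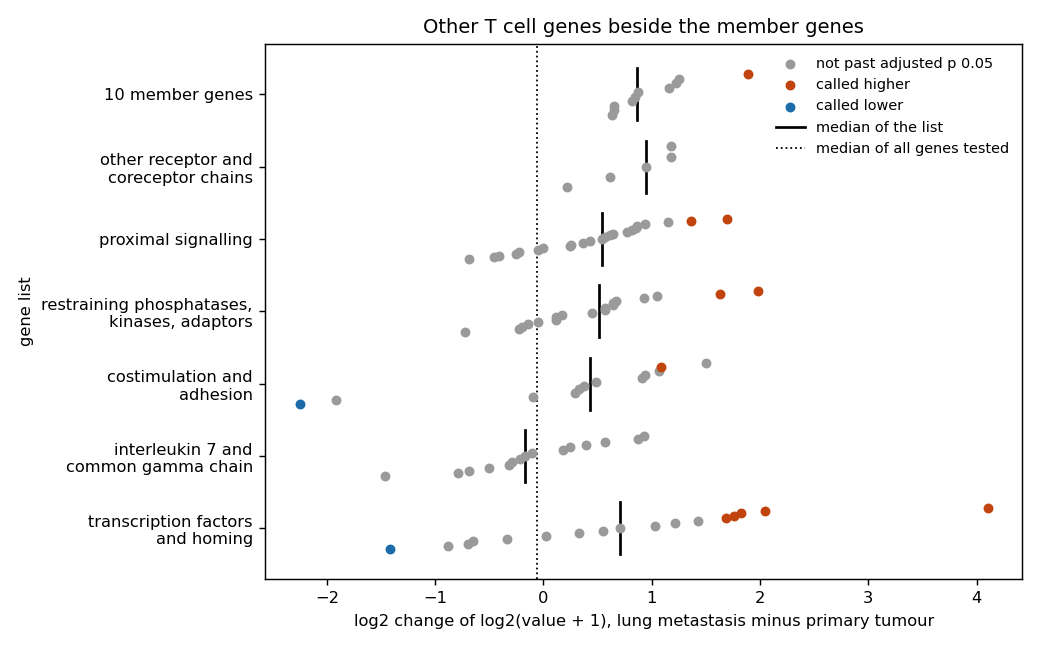
Change of log2(value + 1), lung metastasis minus primary tumour, for the 10 genes (top row) and the tested genes of 6 lists of other T cell genes, coloured by call at a limma adjusted p of 0.05; black bars are list medians and the dotted line is the median of all genes tested. The median was 0.86 for the 10 genes, 0.94 for the other receptor chains and -0.17 for the interleukin 7 list, beside -0.06 for all genes tested.

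The genes whose profile over the 8 libraries was most like the mean of Cd3d, Cd3e and Cd3g were sought by the root mean square distance of centred log2 values, with no test. They were Ptprcap, a CD45-associated protein (0.224), Trbc2 (0.233), Gimap7, a lymphocyte GTPase gene (0.238), Nkg7, a granule gene of natural killer and cytotoxic T cells (0.245), Trbc1 (0.249) and Lat, the adaptor that ZAP70 phosphorylates (0.293). The median distance over all genes tested was 0.877. Among the 10 genes outside the CD3 chains, Cd2 (0.332), Cd8a (0.351) and Cd5 (0.378) lay nearest to that profile and Il7r (0.849) and Cd4 (0.759) farthest. Each CD3 chain was set against the other CD3 chains instead, at 0.763 for Cd3d, 0.645 for Cd3g and 0.578 for Cd3e. These distances were below the median over all genes tested but above those of Cd2, Cd8a and Cd5. The mean profile is therefore an average of CD3 chains that differed from each other, Cd3d most.

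Markers of other cells in the sampled pieces also differed between the tissues. The 10 lung epithelium markers rose in 9 of 10 cases, their sums lying between 7353 and 33667 in metastases against 14.1 to 33.0 in primary tumours. The metastases ranked 3, 1, 2, 4 by mouse on this sum. Il7r kept that order and Cd3d was also highest in mouse 3, while the other 8 genes were highest in mouse 1. The 8 neutrophil markers all rose and summed to 7495 to 28596 against 196 to 1170. Of 8 B cell markers, 4 of which were tested, 2 rose; their sums were 13.7 to 42.0 against 2.15 to 6.31, also highest in the metastasis of mouse 3. B cells of a subset carry Cd5.

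Natural killer markers, which share Lck, Zap70 and Cd2 with T cells, overlapped between the tissues. Their sums were 20.0 to 71.1 in metastases against 12.7 to 41.7 in primary tumours, and 1 of 8 tested, Gzma, rose. Gzmb, Prf1 and Eomes had log2 changes below 0 (-1.11, -1.03 and -0.51), and Klrk1, Nkg7, Klrd1 and Ncr1 above 0, none of them called. The natural killer sum was highest in the metastasis of mouse 1, as were 8 of the 10 genes. Of 9 tested dendritic cell markers 3 rose, Clec9a, Itgae and Xcr1, which mark the dendritic cells that carry CD8 alpha in mouse lymphoid tissue; Itgae is also carried by tissue-resident T cells. The call of Xcr1 (adjusted p = 0.0335) ended with a pseudocount of 5 and without the metastasis of mouse 1 or 4 or any 1 primary tumour (2.96e-05 to 0.0927 over its 16 alternatives). The sums of that list overlapped at 433 to 1162 against 353 to 1151. Most of each sum was the marker H2-Aa, at 586 ± 331 in metastases against 612 ± 368 in primary tumours (SD, n = 4 each). The overlap of the sums therefore says little about the other dendritic markers. Of 6 innate lymphoid markers tested, 2 rose and 1 fell, with overlapping sums of 181 to 337 against 224 to 268. Of those that rose, Il1rl1 (limma adjusted p = 0.0233) lost its call with a block for mouse (0.0616) and without the metastasis of mouse 1 or 2 or the primary tumour of mouse 2, 3 or 4 (4.42e-05 to 0.0734 over its 17 alternatives). None (0) of 7 macrophage markers passed, with sums of 521 to 1095 against 804 to 1851. Of the carcinoma markers 1 of 10 rose and 1 fell, with sums of 1021 to 3414 against 1569 to 2903. Krt19 rose, at 123 ± 48.0 in metastases against 14.1 ± 5.72 in primary tumours, and Cldn4 fell, at 20.1 ± 17.0 against 114 ± 41.0. The called markers Gzma, Clec9a, Itgae, Xcr1, Il1rl1, Krt19 and Cldn4 are named after their values were seen. None of the markers found in the table was at 0 reads in all libraries of a tissue. The part of these other cells, and of normal lung in the sampled pieces, in the levels of the 10 genes was not tested.

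**Figure D4:**
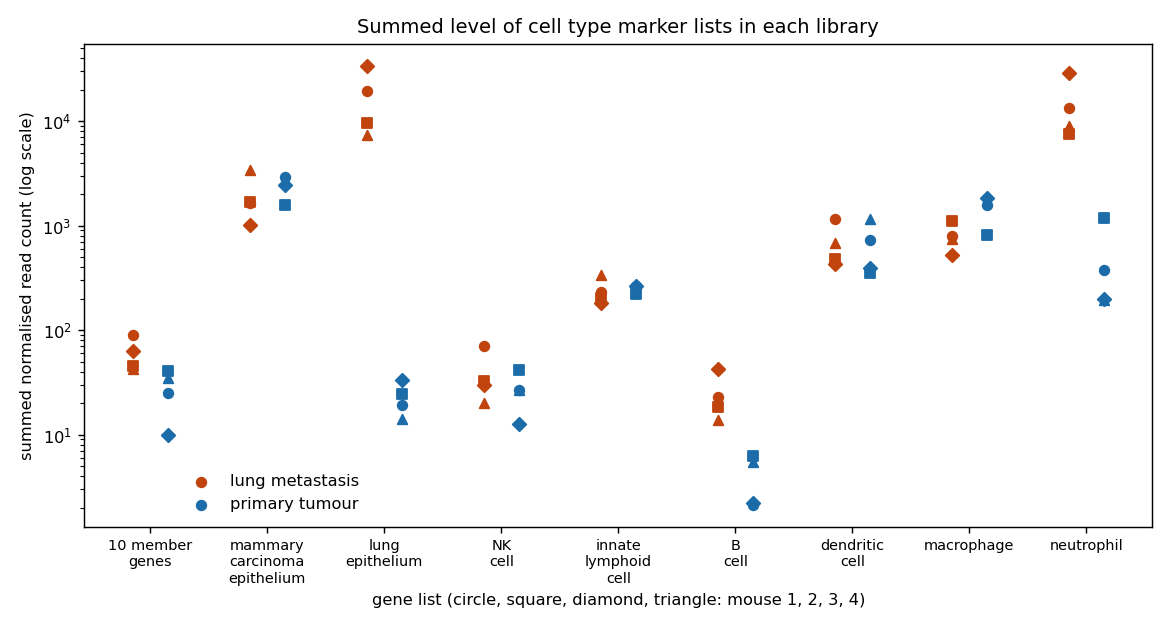
Summed normalised read count (log axis) of the 10 genes and of 8 marker lists of other cell types in each lung metastasis (left of each label) and primary tumour (right), with a symbol for each mouse. The lung epithelium, neutrophil and B cell sums separate the tissues without overlap, and the natural killer, innate lymphoid, dendritic, macrophage and carcinoma sums overlap. Most of each dendritic sum is H2-Aa.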

How the data were processed

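RNA of 4 BC lung metastases and 4 BC primary tumours was analysed; 12 columns of per-sample values of the pancreatic model were not used, since those values are not aligned to the gene names. The deposited values are a signal: reads per gene that the authors brought to a common library size. The build is mm9, per the submitters' processing notes; the sources used here name no aligner, counter or annotation. RNeasy extraction and TruSeq libraries are named per the labels' protocols, which do not say whether strand was kept. Every value of each column was a whole multiple of 1 read within 0.05 reads (100% of values), which gave back the reads, 15447918 to 28995834 per library. The labels mention no molecular identifiers, so floors (3 reads) cover counting error only.

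Genes reaching 1 in 4 or more of the 8 libraries entered limma 3.58.1 (R 4.3.3) on log2(value + 1), which understates fold changes of low genes; group was the only term, and 14003 genes were tested. On the recovered reads edgeR 4.0.16 and DESeq2 1.42.0 ran as alternatives; edgeR called 1050 genes and DESeq2 1985. Others were pseudocounts of 0.1 and 5, other filters, median-ratio scaling, array weights, the mouse as a block and leaving out each library. Titles number the tumours and the series text calls them matched, so numbers pair the tissues of 1 animal; same-number deviations from group means correlated at -0.15 to 0.096. Nothing further says how the pieces were taken. With 1 library per tissue of each mouse, p-values measure the spread between libraries. Differences between mice, sampled pieces and library preparations cannot be told apart in that spread. The fits were tested in a single simulation with the same spread for every gene and changes balanced up and down. In the real data more genes were called higher than lower. The simulated share of false calls was above the nominal level most for DESeq2, less for limma and only slightly for edgeR. The Cd4 to Cd8a ratio had an exact permutation test. The members, lists and tests were chosen with earlier results of these data known. Named were the members, all called genes and up to 4 genes of smallest p in each list of other T cell genes, the leading markers of each other cell type, and the 6 genes nearest in profile; a few called genes of these lists are not reported here.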

Additional observations from a re-analysis of the deposited data

Results flagged for a closer look

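The metastasis of mouse 1 stood apart in Cd8a. Its normalised read count was 10.4, against 2.1 to 2.77 in the other 3 lung metastases, a gap that took 0.919 of the range of the group and exceeded Dixon's 95% critical value for 4 samples. It was the only such library among the 20 groups examined (the 10 genes in each tissue), and chance alone marks about 1 in 20. The same metastasis was the highest of the 4 for 7 of the other genes, and without it the log2 change of Cd8a was 0.79 in place of 1.22 (limma adjusted p = 0.323).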

How the results depend on the processing

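Cd3d passed under all 17 alternatives, and none of the 10 genes changed direction under any. The count of the 10 genes called was 3 with array weights (Cd3d, Cd5 and Cd8a), 2 with DESeq2 (Cd3d and Cd5) and 1 without each library in turn (1 to 1). Where a value of at least 5 in 4 libraries was required, 3 of the 10 remained in the test. Over all genes 2283 were called with array weights and 1985 with DESeq2, in place of 1279, and 711 to 1603 without each library. Of the other T cell genes 26 were called with array weights and 19 with DESeq2, in place of 12, and 7 to 17 without each library. The difference in the Cd4 to Cd8a ratio was 0.10 with a pseudocount of 0.1 (exact permutation p = 1) and -0.54 to 0.23 without each library, in place of -0.06. With the mouse as a block 1112 genes, 1 of the 10 genes and 11 of the other T cell genes were called, and the ratio gave p = 1 by exact sign flips; among the genes named here the block ended the call of Il1rl1 (0.0616) and changed no other. Median-ratio scaling shifted the median of all genes by 0.0349 (log2). The cause of these shifts was not tested. Depth limits the low genes most: 3 reads of Cd3e, 0 of Cd4 and 0 of Cd8a stood behind single primary tumours.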
